A study of Mus musculus with 10 samples.

Results

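Itgax, Itgam, Itgb2, Itgal, Itgb5, Itga4, Itga5, Itga6 and Itgb1 encode integrin subunits that are found on leukocytes, with the beta-2 family placed first. The set is a list of 9 gene symbols, and all 9 were present among the 24421 symbols of the count tables and passed the filter on low counts. RNA seq had been performed on microglia isolated from the cortex of 9-month-old mice by papain dissociation and a density gradient, giving 3 libraries from WT mice, 4 from APP/PS1 mice and 3 from APP/PS1 mice injected with N-AS (APP/PS1+N-AS). The APP/PS1 line overexpresses human APP with the Swedish mutation and a mutant presenilin-1 (PS1), so the model adds transgene products to the mouse's own genes. N-AS is N-acetyl sphingosine, and it was given subcutaneously at 30 mg/kg each day for 8 weeks, starting at 7 months of age. The labels name no injection for the WT and APP/PS1 libraries, while the study's text describes its APP/PS1 comparison mice as given vehicle, so values against APP/PS1 may be values against vehicle. Each library was a pool of 2 mice, so the spread between libraries is a spread between pools. The deposited counts totalled between 8805804 reads (WT 1) and 19432075 reads (APP/PS1 4) per library, and levels are given as CPM, a gene's counts relative to the library's total after trimmed-mean scaling.

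Integrins are receptors made of 1 alpha and 1 beta subunit that bind extracellular matrix, complement fragments or counter-receptors on other cells, and signal in both directions across the membrane. The beta-2 subunit pairs with alpha-L, alpha-M or alpha-X to form the leukocyte integrins LFA-1, CR3 and CR4, of which CR3 is a long-used surface marker of microglia. The beta-1 partners alpha-4, alpha-5 and alpha-6 bind VCAM-1, fibronectin and laminins, and are carried by vascular and other brain cells as well as by leukocytes.

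The microglia label was compared with cell type markers first. All 14 microglia markers examined were detected in every library, and none was at 0. Their summed level was 779.6, 908 and 1189 CPM in WT 1, 2 and 3. In APP/PS1 1 to 4 the sum was 2454, 2581, 3176 and 2864 CPM, and in APP/PS1+N-AS 1, 2 and 3 it was 1849, 2012 and 1556 CPM. The 3 groups did not overlap. The 10 pan-myeloid markers, led by Laptm5, followed the same order, with group means of 201 ± 25.7, 713 ± 111 and 446 ± 115 CPM (SD; n = 3, 4 and 3). The preparations were not made of microglia alone: oligodendrocyte markers summed to more than the microglia markers in every library except APP/PS1 3 and 4, with 6623, 6722 and 2376 CPM in WT, 4621, 4092, 1875 and 1917 CPM in APP/PS1 and 3755, 3815 and 2818 CPM in APP/PS1+N-AS. Astrocyte markers, led by Slc1a2, exceeded the microglia sum in all 10 libraries, at 2349 to 4052 CPM. In these bulk samples, fewer cells of a type and less RNA per cell cannot be told apart.

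Several libraries went against the stated design or stood apart from their group. The study's methods state that only male mice were used, yet Xist, the long RNA that coats an inactive X chromosome, had 453, 482, 579 and 533 CPM in APP/PS1 1 to 4. In APP/PS1+N-AS 1, 2 and 3 Xist had 463, 469 and 2.14 CPM, and in WT 1, 2 and 3 it had 4.40, 2.29 and 1.59 CPM. The summed level of 4 Y-linked genes (Ddx3y, Eif2s3y, Kdm5d and Uty) was 177, 197 and 178 CPM in WT 1, 2 and 3. It was 42.7 and 57.0 CPM in APP/PS1 1 and 2 but 0.888 and 0.619 CPM in APP/PS1 3 and 4, and it was 31.0, 45.7 and 176 CPM in APP/PS1+N-AS 1, 2 and 3. The WT libraries and APP/PS1+N-AS 3 therefore held Y-linked RNA with little Xist, while APP/PS1 1 and 2 and APP/PS1+N-AS 1 and 2 held both. APP/PS1 3 and 4 held Xist with 13 Y-linked reads each. Every APP/PS1 library differed from every WT library in this pattern, so sex-linked expression and genotype cannot be told apart in that comparison. APP/PS1 and APP/PS1+N-AS libraries of like pattern occur only among library numbers 1 to 6. Where N-AS is compared with APP/PS1, fitted values of the 9 members are also given for those libraries alone. Log2 differences of the marker and pathway lists are given there over all libraries only. WT 1 had the fewest reads yet also the fewest symbols at 0, which were 566 against 837 to 3985 in the other 9 libraries. WT 3 also stood apart from WT 1 and 2, with 5337 CPM of summed neuron markers (most abundant gene Snap25) against 1670.0 and 1956 CPM. Choroid plexus markers, led by Ttr, summed to 479, 445 and 30.6 CPM in WT 1, 2 and 3, to 743 to 1264 CPM in the APP/PS1 libraries and to 666, 880.5 and 35.0 CPM in APP/PS1+N-AS 1, 2 and 3.

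Per kilobase of merged exon, the scale on which genes can be ranked, Itgb1 was the most abundant member in WT at 48.1 ± 18.4 CPM per kb (mean ± SD, n = 3). Itgam (24.6 ± 3.34) and Itgb5 (21.1 ± 2.62) came next, and these neighbours overlapped between libraries. Itgax, at 0.453 ± 0.380 CPM per kb, was last in WT and overlapped Itgal at 0.562 ± 0.210. In APP/PS1 the order was led by Itgb5 at 65.0 ± 10.2 CPM per kb, Itgam at 56.4 ± 5.56 and Itgb1 at 54.7 ± 2.33, again with overlap between neighbours (n = 4). Itgax moved from last place to the fifth, at 18.0 ± 6.88 CPM per kb, where it overlapped both Itgb2 (29.4 ± 6.38) and Itga6 (17.8 ± 1.57). In APP/PS1+N-AS it lay at 6.21 ± 1.90 CPM per kb, below Itgb2 at 16.1 ± 3.45 without overlap and overlapping Itga5 at 5.14 ± 1.03 (n = 3). Itgal was the lowest member in both APP/PS1 groups, at 1.22 ± 0.379 and 0.704 ± 0.170 CPM per kb.

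**Figure D1:**
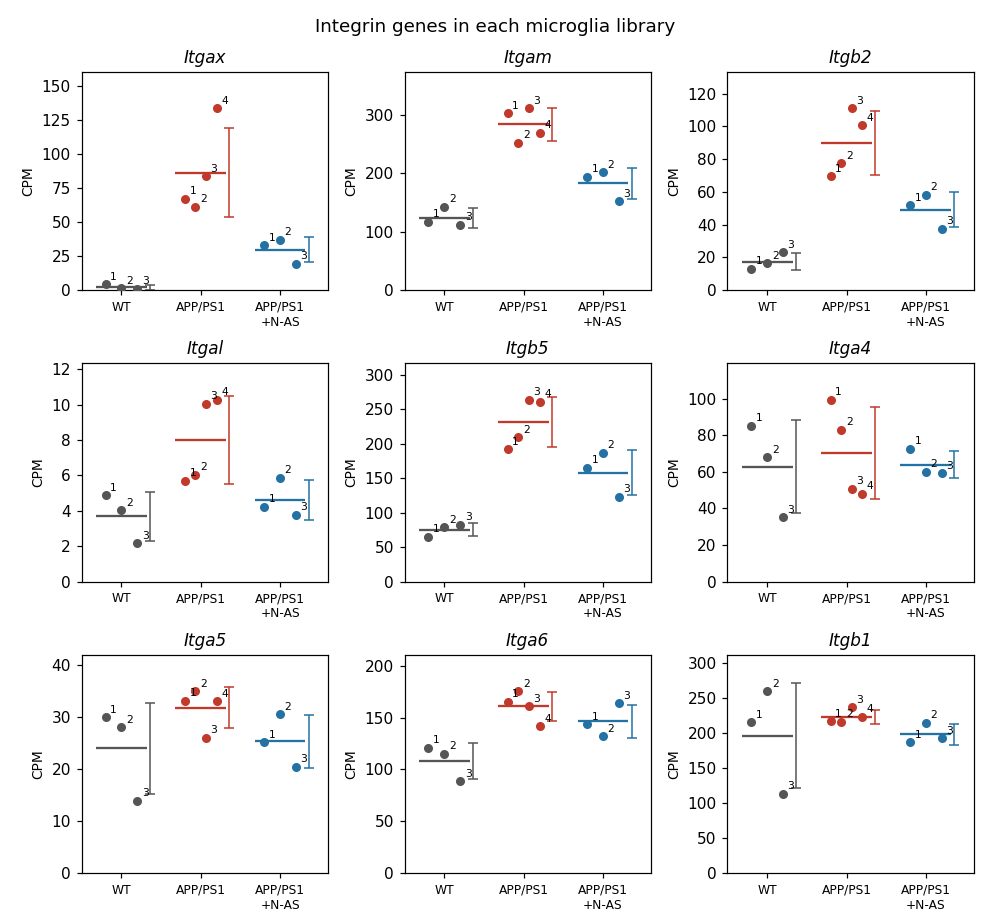
CPM (linear axis from 0) of each of the 9 integrin genes in every library, 1 panel per gene, with points for libraries numbered by replicate and bars for the group mean ± SD (WT n = 3, APP/PS1 n = 4, APP/PS1+N-AS n = 3). For Itgax the WT libraries lie between 1.01 and 4.28 CPM, the APP/PS1 libraries between 61.1 and 134 and the APP/PS1+N-AS libraries between 19.5 and 36.9, whereas for Itga4 the 3 groups overlap.

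The comparison of APP/PS1 with WT asks which integrin genes differ with genotype. Itgax, the gene of the alpha-X subunit (CD11c), had 4.28, 1.24 and 1.01 CPM in WT 1, 2 and 3, resting on 36, 20 and 21 reads. It had 67.3, 61.1, 83.8 and 134 CPM in APP/PS1 1 to 4, on 780, 740, 1226 and 2814 reads. All APP/PS1 libraries were above all WT libraries, with APP/PS1 4 the highest and WT 1 the highest of its group. Itgb2, the beta-2 subunit shared by alpha-X, alpha-M and alpha-L, had 12.8, 16.3 and 23.0 CPM in WT and 69.6, 77.4, 111 and 101 CPM in APP/PS1. Itgam, the alpha-M subunit (CD11b), had 116, 143 and 111 CPM in WT and 302, 251, 311 and 268 CPM in APP/PS1. Neither gene overlapped between the groups. Itgb5, whose product pairs with the alpha-V subunit to bind vitronectin, had 64.5, 78.8 and 82.1 CPM in WT and 192, 209, 264 and 260.2 CPM in APP/PS1, also without overlap.

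Itgax rose by 5.50 on the log2 scale in APP/PS1 (SE 0.53, 95% interval 4.32 to 6.67), which is 45.2-fold, with an adjusted p of 0.000545 (quasi-likelihood test of edgeR, Benjamini-Hochberg over all genes tested). This placed it 19th by p and 5th by log2 fold change among the 18727 genes tested. Itgb2 rose by 2.36 (SE 0.25, adjusted p = 0.000841, edgeR) and Itgb5 by 1.62 (SE 0.19, adjusted p = 0.00153, edgeR). The smallest of the called differences was that of Itgam, which rose by 1.20 (SE 0.16, adjusted p = 0.00326, edgeR). These 4 of the 9 members were called higher and 0 lower, where 3.47% of all genes tested were called, 2.67% higher and 0.796% lower. WT and APP/PS1 libraries were fully separated for 6 of the 9 members, against 14.9% of all genes tested. The median log2 difference was 1.15 over the members and -0.07 over all genes tested. All 4 calls were kept when each library was left out in turn, with Itgax between 5.14 and 6.27. The upper value was reached without WT 1, whose Itgax level was the highest of the WT group. The number of genes called among all tested, 649, rose to 923 without WT 3. It was 319 without WT 1, 362 without WT 2, 430 without APP/PS1 2, 299 without APP/PS1 3 and 299 without APP/PS1 4.

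Itgal, the alpha-L subunit (CD11a) that lymphocytes also carry, had 4.87, 4.02 and 2.17 CPM in WT and 5.70, 6.03, 10.04 and 10.3 CPM in APP/PS1, with 41 to 216 reads per library. Every APP/PS1 library was above every WT library, and APP/PS1 3 and 4 were the highest. Its log2 difference of 1.15 (95% interval 0.42 to 1.89) missed the threshold with an adjusted p of 0.0927 in edgeR's test, and it was 0.37 in library numbers 1 to 6 alone. Itga6, a laminin-binding alpha subunit, had 121, 115 and 88.5 CPM in WT and 165, 176, 161 and 142 CPM in APP/PS1, likewise without overlap. Its log2 difference was 0.57 (95% interval 0.24 to 0.91, adjusted p = 0.0697, edgeR). DESeq2 gave adjusted p-values of 0.0188 for Itgal and 0.00259 for Itga6, and over all 18 alternatives run the range was 0.0188 to 0.476 for Itgal and 0.00259 to 0.173 for Itga6. Of these 18, 1 called Itgal and 3 called Itga6, whose log2 difference lay between 0.46 and 0.66.

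The remaining beta-1 family members overlapped between WT and APP/PS1. Itgb1, the common beta-1 subunit, had 215, 260.1 and 113 CPM in WT and 217, 216, 237 and 223 CPM in APP/PS1, so that WT held both the highest and the lowest library. Its log2 difference was 0.19 (95% interval -0.33 to 0.70, adjusted p = 0.743, edgeR), and it was -0.08 without WT 3, 0.45 without WT 2 and -0.17 in library numbers 1 to 6 alone. Itga4, the alpha-4 subunit that binds VCAM-1, had 85.1, 67.8 and 35.1 CPM in WT and 99.3, 82.9, 50.6 and 47.8 CPM in APP/PS1, with the lowest values in libraries of number 7 or higher. Its log2 difference of 0.17 (95% interval -0.53 to 0.86, adjusted p = 0.842, edgeR) was -0.11 without WT 3, 0.45 without WT 1, -0.05 without APP/PS1 1, 0.08 without APP/PS1 2, 0.30 without APP/PS1 3 and 0.32 without APP/PS1 4. Itga5, the alpha-5 subunit of the fibronectin receptor, had 30.0, 28.05 and 13.9 CPM in WT and 33.1, 35.0, 26.0 and 33.0 CPM in APP/PS1. WT 3 was the lowest of the 10 libraries for Itga5, and the log2 difference was 0.42 (95% interval -0.13 to 0.96, adjusted p = 0.442, edgeR), which was 0.14 without WT 3 and 0.20 in library numbers 1 to 6 alone. WT 3 was also low in the 10 endothelial markers, led by Flt1, which summed to 559 CPM there against 1250.2 and 1525 CPM in WT 1 and 2 and 1066 to 1291.5 CPM in the APP/PS1 and APP/PS1+N-AS libraries. The 8 pericyte and smooth muscle markers, led by Myh11, were lowest in WT 3 as well. They summed to 518 CPM there, against 1705 and 2081 CPM in WT 1 and 2 and 974 to 1277 CPM in the other libraries. None of these markers was at 0 in any library. Of the endothelial list 0 of 10 genes were called in APP/PS1 against WT by edgeR or DESeq2 and 0 had an unadjusted p under 0.05, with a median log2 difference of 0.16. For the pericyte and smooth muscle list these values were 0 of 8, 0 and 0.02. The part of both lists in the Itgb1, Itga4 and Itga5 values was not tested.

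The microglia markers moved with the called members. Of the 14 listed, 11 were called higher in APP/PS1 than in WT and 0 lower, with a median log2 difference of 1.39 and a range of 0.36 to 3.36 (edgeR's test). Itgax, at 5.50, lay above all 14, Itgb2 was below 3 of them, Itgb5 below 5 and Itgam below 10. All 10 pan-myeloid markers were called higher, with a median of 1.65. Oligodendrocyte markers went the other way, with 3 of 10 called lower by edgeR, 8 lower at an unadjusted p under 0.05, 7 called lower by DESeq2 and a median of -1.30. Their sum was lowest in APP/PS1 3 and 4, the libraries with the highest Itgax, Itgb2 and Itgb5. Astrocyte markers had their highest sums in these same 2 libraries (4052 and 3628 CPM), and 1 of the 10 was called higher in APP/PS1 than in WT by each tool. This was Gfap, an intermediate filament gene of reactive astrocytes, with 14.7 ± 3.46 CPM in WT, 735 ± 210.2 CPM in APP/PS1 and 231 ± 138 CPM in APP/PS1+N-AS (mean ± SD; n = 3, 4 and 3). It rose by 5.65 in APP/PS1 against WT (adjusted p = 0.000545, edgeR), while the median of the list was -0.15. All 6 choroid plexus markers had estimates above 0 (median 0.96), with 0 called by edgeR or DESeq2 and 1 at an unadjusted p under 0.05. Summed neutrophil markers, led by S100a9, were 102 CPM in APP/PS1 3 and 4.58 to 18.5 CPM in the other 9 libraries, and all 5 tested had estimates above 0 in APP/PS1 against WT (median 2.14), though 0 were called by edgeR or DESeq2 or had an unadjusted p under 0.05. Elane, a neutrophil protease gene, was at 0 in WT 2 and in APP/PS1 1 and 2. The part of these cell type differences in the integrin differences was not tested.

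Itgax, Itgam and Itgal are also carried by other leukocytes, and the lists for 4 such cell types held 0 genes called by edgeR in APP/PS1 against WT. The 7 dendritic cell markers, led by Zbtb46, summed to 34.9 to 59.7 CPM over the 10 libraries, with group means of 48.2 ± 11.9 in WT and 38.7 ± 2.68 in APP/PS1. None of the 6 tested was called by edgeR in APP/PS1 against WT, 2 had an unadjusted p under 0.05 and DESeq2, which gave 4 an adjusted p, called 1, lower. Border macrophage markers, led by Mrc1, summed to 24.6 to 54.2 CPM, with 0 of 8 called by edgeR, 0 of the 6 given an adjusted p by DESeq2, 0 at an unadjusted p under 0.05 and a median log2 difference of 0.03. The 9 monocyte markers averaged 778 ± 211 CPM in WT and 901 ± 11.7 CPM in APP/PS1, most of it Fn1, and 0 of 9 were called by edgeR and 0 of the 8 given an adjusted p by DESeq2, with 2 at an unadjusted p under 0.05. Plac8, a monocyte marker, was at 0 in APP/PS1+N-AS 1 and 3. T and NK cell markers summed to 49.0 to 162 CPM, most of it Cd3d in every library. Of the 9 tested, 0 were called by edgeR, 0 of the 7 given an adjusted p were called by DESeq2 and 0 had an unadjusted p under 0.05. Ncr1 was at 0 in APP/PS1 1 and 2 and in APP/PS1+N-AS 3, where Nkg7 was at 0 as well. The part of these cells in the integrin levels was not tested.

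**Figure D2:**
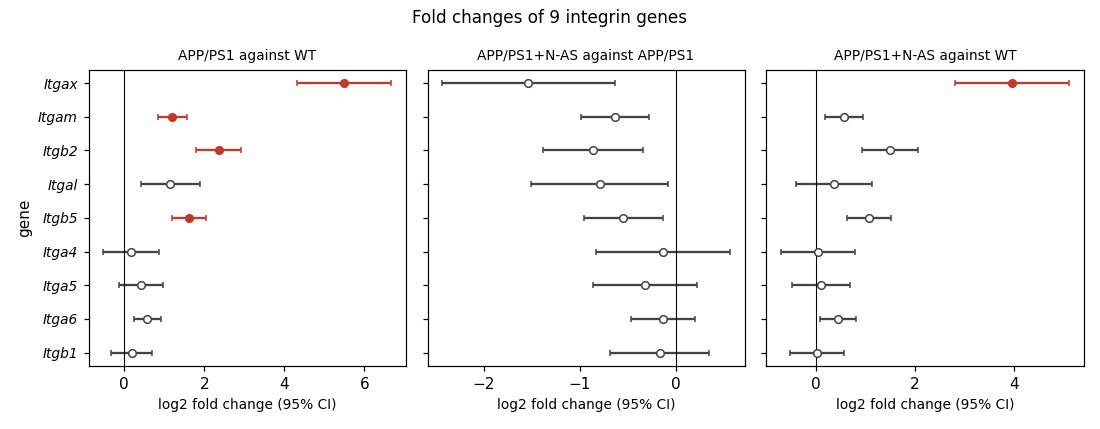
Log2 fold change of each member in the 3 comparisons with its 95% interval from edgeR's quasi-likelihood fit; filled points passed an adjusted p of 0.05 and the vertical line marks 0. Itgax stands apart at 5.50 for APP/PS1 against WT and 3.96 for APP/PS1+N-AS against WT, while Itga4, Itga5 and Itgb1 have intervals across 0 in all 3 comparisons.

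The comparison of APP/PS1+N-AS with APP/PS1 addresses N-AS within the transgenic genotype, against mice that the study's text describes as given vehicle. It uses the same APP/PS1 libraries as the comparison with WT, so the opposite signs of the 2 sets of values are not independent. Itgax had 33.1, 36.9 and 19.5 CPM in APP/PS1+N-AS 1, 2 and 3, on 502, 696 and 264 reads, below all 4 APP/PS1 libraries. Itgam had 193, 201 and 152 CPM, Itgb2 51.8, 58.2 and 37.6 CPM and Itgb5 165, 186 and 123 CPM in the same libraries. None of these genes overlapped APP/PS1, and APP/PS1+N-AS 3 was the lowest N-AS library for each. Itgb1, at 187, 215 and 193 CPM, was also below every APP/PS1 library, whose lowest value was 216 CPM, although its level in APP/PS1+N-AS 2 was within 1 CPM of that value.

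No member passed the threshold in this comparison by edgeR, while DESeq2 called Itgax and Itgam lower. The log2 difference was -1.54 for Itgax (SE 0.41, 95% interval -2.44 to -0.64), with an adjusted p of 0.494 in edgeR's test. Itgam differed by -0.64 (95% interval -0.99 to -0.28) and Itgb2 by -0.87 (95% interval -1.39 to -0.35), both with an adjusted p of 0.494 in edgeR's test. For Itgb5 the log2 difference was -0.55 (95% interval -0.96 to -0.14, adjusted p = 0.509, edgeR). All 9 estimates were below 0 and 5 of 9 members did not overlap between groups (Itgax, Itgam, Itgb2, Itgb5 and Itgb1), against 12.7% of all genes tested. The median log2 difference was -0.55 over the members and -0.01 over all genes tested. Of all 18727 genes, 0 (0%) were called by edgeR's quasi-likelihood test, 1653 had an unadjusted p under 0.05, 5 of the members among them, and DESeq2 called 79. In DESeq2 the adjusted p was 0.0498 for Itgax and 0.0145 for Itgam, within ranges over the 18 alternatives of 0.0498 to 0.996 and 0.0145 to 0.996.

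Among library numbers 1 to 6, where the APP/PS1 and APP/PS1+N-AS libraries had the like sex-linked pattern, the 4 members called against WT had smaller differences and Itga4 and Itga6 larger ones. The fitted log2 difference was -0.88 for Itgax, -0.49 for Itgam, -0.42 for Itgb2 and -0.20 for Itgb5, and none passed the threshold (edgeR, adjusted p between 0.380 and 0.745). It was -0.47 for Itga4, -0.31 for Itga6, -0.22 for Itgal, -0.29 for Itga5 and -0.11 for Itgb1, again without a call. Without APP/PS1+N-AS 3 alone, Itgax stood at -1.30 and Itgb2 at -0.70. In numbers 7 to 10, with 2 APP/PS1 libraries and 1 N-AS library of unlike pattern, the difference in mean log2 CPM was -2.43 for Itgax, -0.93 for Itgam, -1.49 for Itgb2 and -1.09 for Itgb5. It was -1.40 for Itgal, -0.52 for Itga5 and -0.25 for Itgb1, but above 0 for Itga4 (0.27) and Itga6 (0.12). The marker values that follow are over all libraries. The microglia markers were also lower in the N-AS libraries, with a median log2 difference of -0.64 (range -1.20 to -0.17). Of the 14, 0 were called by edgeR, 9 had an unadjusted p under 0.05 and 1 was called by DESeq2. Over all libraries Itgax, at -1.54, was below all 14 of them, and Itgam, at -0.64, lay at their median. The -0.88 of Itgax in library numbers 1 to 6 has no marker values of the same libraries beside it. The pan-myeloid markers were lower too, with a median of -0.67, 0 of 10 called by edgeR, 8 at an unadjusted p under 0.05 and 2 called by DESeq2. All 10 oligodendrocyte markers had estimates above 0 (median 0.56) and all 6 choroid plexus markers below 0 (median -0.84), with 0 called by either tool and 0 at an unadjusted p under 0.05. Estimates above 0 were found for 0 of 5 neutrophil, 1 of 9 T and NK cell and 2 of 9 monocyte markers (medians -1.11, -0.46 and -0.49). Of these, 0 were called by edgeR or by DESeq2, which gave 3, 7 and 5 of them no adjusted p. An unadjusted p under 0.05 was found for 1, a monocyte marker. Gfap, the astrocyte marker, had -1.67 (adjusted p = 0.494, edgeR) and was called lower by DESeq2.

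The other 5 members were called neither by edgeR nor by DESeq2 between APP/PS1+N-AS and APP/PS1. Itgal had 4.22, 5.88 and 3.77 CPM in APP/PS1+N-AS, where replicate 2 was among the APP/PS1 values, and its log2 difference was -0.79 (adjusted p = 0.531, edgeR). Itga6 had 144, 132 and 164 CPM and a log2 difference of -0.13, with both groups overlapping. It was -0.21 without APP/PS1+N-AS 3, -0.07 without APP/PS1+N-AS 2 and -0.09 without APP/PS1 2. Itga5 had 25.2, 30.5 and 20.4 CPM and a log2 difference of -0.32, which was -0.18 without APP/PS1+N-AS 3. Itga4 had 72.5, 59.9 and 59.1 CPM, inside the APP/PS1 range, and its log2 difference of -0.13 was 0.08 without APP/PS1 1, -0.04 without APP/PS1 2, -0.26 without APP/PS1 3 and -0.29 without APP/PS1 4. It was -0.23 without APP/PS1+N-AS 1 and -0.07 without APP/PS1+N-AS 3. Itgb1 differed by -0.17 (95% interval -0.69 to 0.34, adjusted p = 0.870, edgeR), so its lack of overlap came with a small difference.

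Against WT, APP/PS1+N-AS mice had more Itgax in every library, with a lowest N-AS level of 19.5 CPM and a highest WT level of 4.28 CPM. Itgax rose by 3.96 on the log2 scale (SE 0.52, 95% interval 2.81 to 5.11), or 15.6-fold, with an adjusted p of 0.0187 in edgeR's test. It was the 9th of 18727 genes by p and the only member called by edgeR, 1 of 9 higher and 0 lower (3 of 9 higher in DESeq2, with Itgb2 and Itgb5), where 0.187% of all genes tested were called, 0.176% higher and 0.0107% lower. The call was lost without WT 2 (3.70, adjusted p = 0.127, edgeR), without APP/PS1+N-AS 1 (3.88, adjusted p = 0.104, edgeR) and without APP/PS1+N-AS 2 (3.78, adjusted p = 0.103, edgeR). It was also lost with a replicate block (3.98, adjusted p = 0.0577, edgeR) and with only these 2 groups fitted (3.91, adjusted p = 0.183, edgeR). Over the 18 alternatives its adjusted p ranged from 3.07e-12 to 0.941. APP/PS1+N-AS 3 alone, the N-AS library whose sex-linked pattern matched WT, gave 3.34 (adjusted p = 0.941, edgeR), a setting chosen after seeing the data. In that setting the single library is assumed to vary like the other groups. The number of genes called in all, 35, was 5 without WT 1, 1 without WT 2, 57 without WT 3, 3 without APP/PS1+N-AS 1, 2 without APP/PS1+N-AS 2 and 116 without APP/PS1+N-AS 3.

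Itgb2, Itgb5, Itgam and Itga6 were also above WT in every N-AS library without passing the threshold in edgeR's test, which made 5 of 9 members without overlap against 8.81% of all genes tested. Itgb2 differed by 1.49 (95% interval 0.92 to 2.05, adjusted p = 0.0593, edgeR) and Itgb5 by 1.07 (95% interval 0.63 to 1.51, adjusted p = 0.0839, edgeR). Without APP/PS1+N-AS 3 both passed, at 1.68 (adjusted p = 0.0218, edgeR) and 1.25 (adjusted p = 0.0262, edgeR). Itgb2 also passed without WT 3, at 1.75 (adjusted p = 0.0370, edgeR). DESeq2 called both (adjusted p = 3.91e-05 and 0.000125), and of the 18 alternatives 6 called Itgb2 and 3 called Itgb5. Over those 18 the adjusted p ranged from 3.91e-05 to 1.0 for Itgb2 and from 0.000125 to 1.0 for Itgb5. Itgam differed by 0.56 (adjusted p = 0.435, edgeR) and Itga6 by 0.44 (adjusted p = 0.627, edgeR). The median log2 difference of the members was 0.44, against -0.04 over all genes tested, and 0.92 for the microglia markers, of which edgeR called 1 of 14 and DESeq2 8 of 14 higher. The pan-myeloid markers had a median of 1.14, with 10 of 10 at an unadjusted p under 0.05, 1 called by edgeR and 7 by DESeq2. The oligodendrocyte markers had a median of -0.77, with 0 of 10 called by either tool and 5 at an unadjusted p under 0.05, and Gfap rose by 3.98 (adjusted p = 0.0187, edgeR). The 3 beta-1 family members that overlapped, Itga4, Itga5 and Itgb1, had log2 differences of 0.03, 0.09 and 0.02, which turned to -0.25, -0.18 and -0.26 without WT 3. Itgal overlapped WT as well, with a log2 difference of 0.36 (95% interval -0.42 to 1.13, adjusted p = 0.913, edgeR). This was 0.08 without WT 3 and 0.595 without WT 1.

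Within the beta-2 family the share of Itgax among Itgax and Itgam reads gives the balance of the 2 alpha subunits inside each library, where library scaling cancels. In WT 1, 2 and 3 the share was 3.55% (2.50 to 4.88), 0.861% (0.526 to 1.33) and 0.901% (0.558 to 1.37), with exact Clopper-Pearson 95% intervals. It was 18.2% (17.1 to 19.4), 19.6% (18.3 to 20.9), 21.2% (20.2 to 22.3) and 33.3% (32.3 to 34.3) in APP/PS1 1 to 4. In APP/PS1+N-AS 1, 2 and 3 it was 14.6% (13.4 to 15.8), 15.5% (14.4 to 16.6) and 11.4% (10.1 to 12.7). These intervals hold counting error only and not the spread between pools. The groups did not overlap, and APP/PS1 4 had the highest share. The summed per-kb level of the beta-2 partners (Itgax, Itgam, Itgal and Itgad) divided by that of Itgb2 was 4.88 ± 1.63 in WT, 2.67 ± 0.460 in APP/PS1 and 2.74 ± 0.142 in APP/PS1+N-AS (mean ± SD; n = 3, 4 and 3). WT 3, at 3.03, overlapped the APP/PS1 range of 2.25 to 3.32. For the alpha-V/beta-5 pair, the per-kb level of Itgb5 was 1.96 ± 0.122 times that of Itgav in WT, 6.69 ± 0.719 times in APP/PS1 and 4.24 ± 1.27 times in APP/PS1+N-AS. The groups did not overlap, and Itgav itself, the alpha-V subunit, had a log2 difference of -0.15 between APP/PS1 and WT (95% interval -0.44 to 0.14, adjusted p = 0.624, edgeR).

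Of 18 further integrin genes listed, all tested, which are subunits apart from the secreted relative Itgbl1, 0 were called in any of the 3 comparisons, by edgeR or by DESeq2, which gave 3 of them no adjusted p for APP/PS1+N-AS against APP/PS1. Of all genes tested, edgeR called 3.47% in APP/PS1 against WT, 0% in APP/PS1+N-AS against APP/PS1 and 0.187% in APP/PS1+N-AS against WT. For all 18 the groups overlapped in each comparison, where 14.9%, 12.7% and 8.81% of all genes tested did not, and 0, 1 and 1 of them had an unadjusted p under 0.05 for the 3 comparisons in that order, against 17.2%, 8.83% and 6.73% of all genes tested. Their median log2 difference was -0.07 for APP/PS1 against WT, and that of all genes tested was also -0.07 after rounding. Among the most abundant, Itgb3, the beta-3 partner of alpha-V, had -0.28 (adjusted p = 0.524, edgeR) and Itgb6 had 0.38 (adjusted p = 0.674, edgeR). Itgad, the remaining beta-2 alpha subunit, had 1.60 (95% interval -0.01 to 3.20, adjusted p = 0.293, edgeR) at 4.28, 0.310 and 0.530 CPM in WT and 3.80, 3.72, 4.37 and 6.67 CPM in APP/PS1. Its estimate was above that of Itgam, and WT 1 was the WT library that overlapped APP/PS1.

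Of 34 integrin ligands listed, 31 were tested, and edgeR called 2 higher and 0 lower in APP/PS1 than in WT, where 2.67% of all genes tested were called higher, with a median log2 difference of -0.03. DESeq2 called 3 higher, Spp1, C3 and Icam1, which encodes a ligand of LFA-1. Spp1 (osteopontin, a secreted ligand of alpha-V and alpha-4 integrins) rose by 2.82 (adjusted p = 0.00140, edgeR). C3, whose cleavage product iC3b is the ligand of CR3 and CR4, rose by 1.92 (adjusted p = 0.0396, edgeR) from 7.84, 5.70 and 6.27 CPM in WT to 9.67, 15.0, 34.3 and 39.9 CPM in APP/PS1. APP/PS1 3 and 4 held the higher C3 levels. Fn1, which encodes fibronectin, the ligand of alpha-5/beta-1, had a log2 difference of 0.20 (adjusted p = 0.706, edgeR). Against APP/PS1, the N-AS libraries differed by -1.51 for Spp1 and -1.78 for C3, and 0 of the 31 ligands were called by edgeR, while 3 had an unadjusted p under 0.05 and DESeq2 called these 2 lower. C3 had 6.52, 8.69 and 6.35 CPM in APP/PS1+N-AS 1, 2 and 3. These levels lay much closer to those of APP/PS1 1 and 2 than to those of APP/PS1 3 and 4. The sex-linked pattern of APP/PS1 1 and 2 was like that of APP/PS1+N-AS 1 and 2, while APP/PS1+N-AS 3 was unlike every APP/PS1 library. The part of this pattern in the C3 levels was not tested.

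Integrins are switched on from inside the cell by adaptors that bind the beta tail. The list of activators and adaptors used here also holds genes with other roles. Of 31 activators and adaptors, 5 were called higher in APP/PS1 than in WT and 0 lower, against 2.67% and 0.796% of all genes tested, with a median of -0.03. They were Fyb (1.91, adjusted p = 0.00175), Apbb1ip, which encodes the Rap1 effector RIAM (1.41, adjusted p = 0.00243), Skap2 (0.96, adjusted p = 0.00377), Parvg (1.31, adjusted p = 0.0115) and Fermt3, which encodes the kindlin of blood cells (0.98, adjusted p = 0.0155), all in edgeR's test. Talin-1, the general activator encoded by Tln1, had a log2 difference of 0.52 (adjusted p = 0.228, edgeR), and Flna, which encodes the actin crosslinker filamin A, had -0.23. Of 20 signalling genes (kinases, exchange factors, adaptors and others), 11 were called higher and 0 lower by edgeR, with a median of 1.00, against the same 2.67% and 0.796%. The pan-myeloid markers, of which 10 of 10 were called higher, moved in the same direction, and the part of myeloid cell content in these counts was not tested. Tyrobp and Fcer1g, adaptors that link beta-2 integrins to Syk kinase, rose by 3.40 and 2.66 (adjusted p = 0.000379 for both, edgeR). Vav1 (1.34), Pik3cg (1.21), Btk (1.26) and Lyn (1.13) rose as well, while Fyn (-0.02), Elmo1 (0.15) and Lcp2 (-0.05) were not called. In APP/PS1+N-AS against WT, Tyrobp (2.33, adjusted p = 0.0160, edgeR) and Fcer1g (1.53, adjusted p = 0.0312, edgeR) were the 2 of these 20 genes called by edgeR, where DESeq2 called 7 higher. In APP/PS1+N-AS against APP/PS1 edgeR called 0 of the 20, with 10 lower and 1 higher at an unadjusted p under 0.05, and DESeq2 called Fcer1g and Tyrobp lower. Of the 31 activators and adaptors 0 were called there by edgeR or by DESeq2, which gave 1 of them no adjusted p, with 5 lower and 1 higher at an unadjusted p under 0.05.

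The genes whose log2 CPM followed a member most closely over the 10 libraries were named by Pearson's r, which is a description with no test because the libraries share groups. For Itgax they were Gpr183 (0.991), Cst7 (0.987), Lilrb4a (0.986), Gpr65 (0.984) and Clec7a (0.982). For Itgam they were Cd52 (0.976), Fau (0.976), Gngt2 (0.973), Fam46c (0.970) and Plxdc2 (0.968). For Itgb1 they were Esyt1 (0.985), Tek (0.984), Cdh5 (0.981), Ctnna1 (0.978) and Sdpr (0.975), of which Tek and Cdh5 are on the endothelial list. After group means were removed, r was 0.908 for Gpr183 with Itgax, 0.768 for Cd52 with Itgam and 0.987 for Esyt1 with Itgb1.

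Itgax and Itgam are neighbours in the mouse genome (GRCm38, the assembly of mm10). Itgam spans chr7:128062640-128118491 and Itgax chr7:128129547-128150657, both on the plus strand and separated by 11055 bases, with Itgad next at chr7:128154376-128223816. Of the 12 tested genes nearest to the pair, 6 on each side, 2 were called higher in APP/PS1 than in WT by edgeR, against 2.67% of all genes tested. They were Pycard, an inflammasome adaptor (1.14, adjusted p = 0.0114, edgeR), and Cox6a2 (2.25, adjusted p = 0.0193, edgeR), which lies within the span of Itgad on the opposite strand. Itgal is on the same chromosome at chr7:127296260-127335138, and Itgb2 (chr10:77530252-77565708) and Itgb5 (chr16:33829665-33949338) lie elsewhere. Exons of Itgam overlap those of Gm49368 on the same strand, and exons of Itga4 overlap those of Cerkl on the opposite strand. The counting's strand setting is not given in the sources used here, so reads of these overlaps are uncertain.

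**Figure D3:**
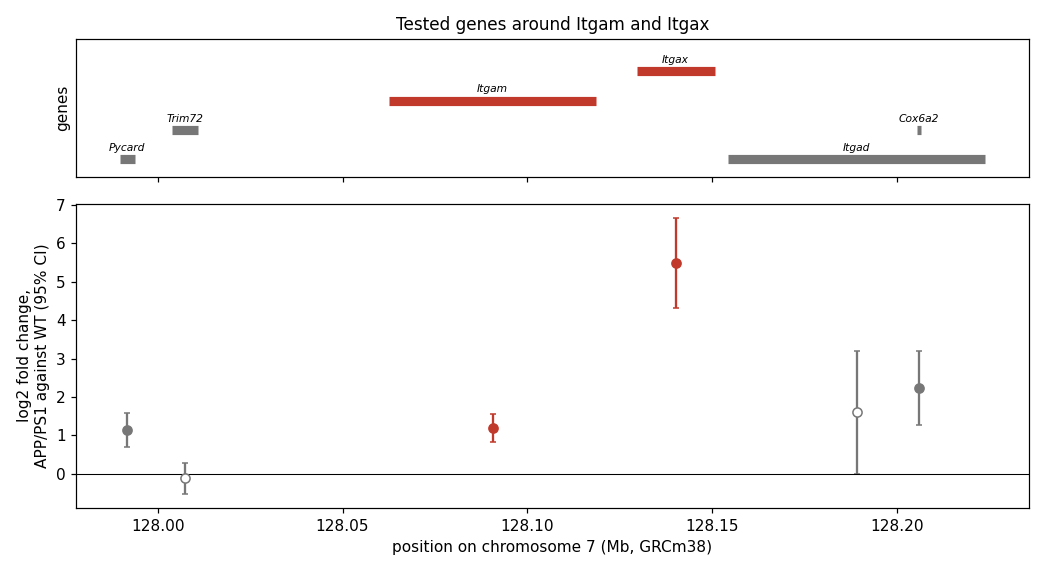
Map of the Itgam and Itgax region of mouse chromosome 7 (GRCm38; position in Mb), with genes drawn to scale above, and the log2 fold change of the pair and of the 2 nearest tested genes on each side in APP/PS1 against WT with its 95% interval below. Itgax stands at 5.50 and Itgam at 1.20, while Trim72 lies near 0.

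Itgam and Itgax are adjacent and differed unequally between the groups, and the 250 bases before their RefSeq starts are shown for that reason. RefSeq windows (GRCm38.p6) were matched for 6 of the 9 members, and Itgb2, Itgal and Itga6 are named only. The motifs searched on both strands were the PU.1 core (GAGGAA or TTCCTC), AP-1 (TGAGTCA or TGACTCA), the RUNX core (TGTGGT or ACCACA) and the E-box CACGTG. Of all 32851 windows of 250 bases, 23.3% held the PU.1 core, 4.46% AP-1, 14.0% the RUNX core and 6.02% the E-box. Capitals mark the matches, which are the PU.1 core at bases 167 to 172 and 236 to 241 for Itgam (chr7:128062390-128062639, plus strand) and AP-1 at bases 195 to 201 for Itgax (chr7:128129300-128129549, plus strand).
Itgam: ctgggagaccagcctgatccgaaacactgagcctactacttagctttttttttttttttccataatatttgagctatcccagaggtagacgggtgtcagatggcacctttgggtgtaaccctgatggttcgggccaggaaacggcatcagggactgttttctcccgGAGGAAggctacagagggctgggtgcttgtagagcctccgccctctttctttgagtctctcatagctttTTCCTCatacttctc
Itgax: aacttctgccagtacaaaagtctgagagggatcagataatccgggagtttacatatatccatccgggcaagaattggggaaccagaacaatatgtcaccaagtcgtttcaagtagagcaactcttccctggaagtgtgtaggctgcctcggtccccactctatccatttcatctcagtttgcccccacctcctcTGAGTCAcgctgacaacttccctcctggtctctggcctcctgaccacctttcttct
The Itgam window held no AP-1 match and the Itgax window no PU.1 core. A match is a description, not a site or a cause, and its absence says only that these letters are not in the window. Of the other windows, Itgb1 and Itga5 held 1 PU.1 core each, Itga4 held 1 RUNX core and Itgb5 held none of the 4 motifs.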

How the data were processed

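Read counts per gene symbol were deposited by the authors, 1 table per library, after ribosomal RNA depletion, a stranded library kit and paired sequencing. The submitters' processing notes name TopHat, edgeR and the mm10 build, without tool versions, and the study's methods name bedtools for counting. Their strand setting and annotation are not given in the sources used here. The 24481 lines hold 24421 symbols, and 103 lines sharing 43 symbols were summed. Groups came from the sample labels. Deposited totals ranged from 8805804 to 19432075 reads, and no 2 libraries of a group agreed within counting noise.

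The members and the gene lists were chosen with earlier results of these data known. Genes were filtered with filterByExpr (18727 tested), scaled by TMM and fitted in 1 model of 3 groups and 10 libraries with edgeR 4.0.16 (R 4.3.3), using the quasi-likelihood test with Benjamini-Hochberg adjustment over all genes tested, threshold 0.05. The biological coefficient of variation was 27.4%. SE is the absolute log2 difference over the square root of F. The fit was tested on simulated data with changes of 2-fold and 4-fold. For APP/PS1+N-AS against APP/PS1, edgeR recovered 28% and 78.6% of them and called 4 other genes. The values were 41.4%, 84.5% and 10 for APP/PS1 against WT. They were 38%, 75.8% and 6 for APP/PS1+N-AS against WT. Alternatives were DESeq2 1.42.0, limma-voom (limma 3.58.1), other scalings and filters, a replicate block, a library-set covariate, subsets of libraries, and each library left out. Levels per kb use merged exon lengths of GENCODE M21. Likeness is Pearson's r of log2 CPM with a prior count of 2. Clopper-Pearson intervals were computed with scipy 1.17.1 (Python 3.11.15). PCR reads had no molecular identifiers, so those intervals cover counting error only.

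The rule for named genes took all members. From each pathway list (other subunits, ligands, activators and adaptors, signalling genes) it took up to 6 called genes by p and up to 3 abundant uncalled ones per comparison. It also took the most abundant gene of each marker list and the marker genes at 0. Itgad, and the neighbours of the pair, were named for their position, Gfap as the called astrocyte marker and Icam1 as a call of DESeq2 alone. Ly6g and Trac, among the neutrophil and T cell markers, matched no symbol. Some listed and neighbouring genes are not reported here one by one. The labels number the libraries, and same-numbered libraries of APP/PS1+N-AS and APP/PS1 deviated together (r = 0.278, 0.142 and 0.309 over genes). So did some libraries of unlike number. Their r was 0.197 for APP/PS1+N-AS 1 with APP/PS1 2, 0.173 for 2 with 1 and 0.32 for 3 with 4. All other pairs had a negative r, from -0.341 to -0.143. They joined APP/PS1+N-AS 1 or 2 with APP/PS1 3 or 4, or APP/PS1+N-AS 3 with APP/PS1 1 or 2. The sign of r thus followed the library set and not the replicate number. The replicate block was run as an alternative only, and for APP/PS1+N-AS against APP/PS1 it called 0 genes and put Itgax at -1.30 (adjusted p = 0.542, edgeR). For the comparisons with WT the correlations of same-numbered libraries had mixed signs.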

Additional observations from a re-analysis of the deposited data

How the results depend on the processing

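Of 486 member values under the alternatives, 446 kept their direction and side of the threshold, 6 lost the call, 15 gained it and 19 turned sign. Itgax in APP/PS1 against WT was called in all 18, between 4.68 and 6.27 (5.14 to 6.27 with a library left out). Genes called in APP/PS1 against WT (649) were 1362 in DESeq2, 1055 with the library set as a covariate, 410 with only these 2 groups fitted and 299 to 923 with a library left out. For APP/PS1+N-AS against APP/PS1 (0), DESeq2 called 79, library numbers 1 to 6 alone 11, and leaving out a library 0 to 1. For APP/PS1+N-AS against WT (35) the counts were 187 in DESeq2, 17 in limma-voom, 64 with the covariate, 437 in numbers 1 to 6 alone, 2 with only these groups, 2 with the injected group reduced to replicate 3 (chosen after seeing the data) and 1 to 116 with a library left out. The cause was not tested.

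With a replicate block, 326 genes were called in APP/PS1 against WT and 5 in APP/PS1+N-AS against WT, where Itgax stood at 3.98 (adjusted p = 0.0577, edgeR). Replicate numbers did not pair those libraries (r = -0.485, 0.441 and -0.00962 for APP/PS1 against WT, and -0.136, 0.348 and 0.24 for APP/PS1+N-AS against WT), and the block changed no other call of the members.

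Itgax in APP/PS1+N-AS against APP/PS1 was -1.55 in DESeq2 (adjusted p = 0.0498) and -1.72 to -1.25 with a library left out. In APP/PS1+N-AS against WT it was 3.91 with only these groups (adjusted p = 0.183, edgeR), 3.34 with the reduced group (adjusted p = 0.941, edgeR) and 3.60 to 4.73 with a library left out.

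Only overlapping members turned sign. Itgb1 in APP/PS1+N-AS against WT was -0.0027 with upper-quartile factors, -0.0021 with at least 10 counts in every library, -0.28 in numbers 1 to 6, -0.027 with the reduced group and -0.26 to 0.28 with a library left out. In APP/PS1 against WT it was -0.17 in numbers 1 to 6 and -0.082 to 0.45 with a library left out. Itga4 in APP/PS1+N-AS against WT was -0.25 in numbers 1 to 6, -0.074 with the reduced group and -0.25 to 0.31 with a library left out. With a library left out it was -0.11 to 0.45 in APP/PS1 against WT and -0.29 to 0.083 in APP/PS1+N-AS against APP/PS1. Itga5 in APP/PS1+N-AS against WT was -0.10 in numbers 1 to 6, -0.22 with the reduced group and -0.18 to 0.28 with a library left out. The cause was not tested. Itgax rests on 20 to 36 reads per WT library and Itgal on 41 to 216 reads, which limits their precision.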
